A study of Mus musculus with 90 samples.

Results

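The 9 genes described here encode the receptors by which platelets and their precursors, the megakaryocytes, hold on to a damaged vessel wall and to each other. They were taken by symbol, as 9 of the 35869 genes of a single-cell table in TPM, a unit that gives each transcript as its share of a library after correction for gene length. Gp1ba, Gp1bb, Gp9 and Gp5 encode the subunits of the GPIb-IX-V complex, Itga2b and Itgb3 the αIIb and β3 chains of the platelet integrin, Gp6 the collagen receptor GPVI, Fcer1g its signalling partner, the Fc receptor γ chain, and Clec1b the podoplanin receptor CLEC-2.

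In a vessel wound GPIbα binds von Willebrand factor and slows the platelet, and GPVI and CLEC-2 signal through tyrosine motifs (ITAMs) to switch the integrin to a state that binds fibrinogen. The products of Gp1ba, Gp1bb, Gp9 and Itga2b reach the cell surface efficiently only when they assemble with their partners, and GPVI needs the γ chain. Which transcripts occur in the same cell therefore matters for each complex. RUNX1, the transcription factor deleted in the study, acts with GATA1, FLI1 and other ETS family factors in megakaryocytes.

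The study sorted CD41-positive hematopoietic stem cells from mouse bone marrow, kept them in culture for 2 days, picked cells that looked like megakaryocytes (MK) or did not (NMK), and made 1 SMART-Seq library from each. It asked how the loss of RUNX1 bears on the differentiation potential of these cells. KO MK (5 cells) and KO NMK (13 cells) carry MxCre1+/-,RUNX1f/f, WT MK (6 cells) and WT NMK (9 cells) MxCre1-/-,RUNX1f/f, so all groups carry the floxed alleles and differ by the Cre transgene. All mice received polyIC 4 times and were used 4 weeks after injection. Mx1-Cre runs from a promoter that interferon switches on, so it is not restricted to one blood lineage. CD41 is the protein of Itga2b, 1 of the 9 genes, and was itself used to sort the cells. No label names the mouse or culture of a cell. Each group therefore counts as 1 sample, no test was possible between groups, and all SDs measure the spread between cells.

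The table without outliers holds 33 cells, and a fuller table holds these and 13 more libraries. Genes at 1 TPM or more numbered 8385 to 10496 in KO MK, 9022 to 10815 in WT MK, 2999 to 8156 in KO NMK and 4777 to 7995 in WT NMK cells. TPM keeps no count of reads, so the depth of a library is unknown. The targeted gene itself, Runx1, had medians of 12.6 TPM in KO MK, 11 TPM in WT MK, 6.7 TPM in KO NMK and 5.3 TPM in WT NMK cells. These are sums over the whole gene, which check nothing about a deleted part of it, and KO and WT below name the labels. KO NMK B1-1b and B1-2a had scores of 4.36 and 2.54 (mean log2(TPM + 1) over 14 housekeeping genes), against 9.22 or more in every WT NMK cell. In B1-1b, mitochondrial transcripts made up 91.6% of the library. KO MK B1-4 and KO MK 2 went against the MK label. Their scores over 8 megakaryocyte genes that are no members were 2.38 and 3.58, below the lowest WT MK cell at 5.15. These same cells held 592.1 and 720.3 TPM in sum of 8 granulocyte and monocyte genes and 367.7 and 421.0 TPM of 5 stem cell genes, where the other MK cells of both genotypes had at most 13.8 and 2.2 TPM. The first sum was mostly Tyrobp (449.1 and 530.4 TPM), with Prtn3 (91.2 and 62.1) and Fcgr3 (50.8 and 123.2). Mpo, Elane and Ctsg of the same list were at 0 in both cells, Csf1r at 0 and 2.7 TPM, and Ly86 at 1.0 and 1.9 TPM. Results that rest on these 4 cells are given with and without them, a choice made after seeing the data. The 5 WT MK cells whose titles have no prefix correlated at Pearson r 0.961 to 0.973 across 12138 genes, against 0.727 to 0.918 among KO MK cells. Whether they are fully separate samples was not tested, and their SD may understate the spread between WT cells.

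Promoters of 4 members are shown because Gp9 and Fcer1g are the members whose promoters hold a RUNX letter pattern, and Gp6 and Clec1b are the members with the greatest excess in KO MK over WT MK cells. They run from 250 bases before to 50 bases after the RefSeq start, 5′ to 3′ (RefSeq, GRCm38.p6). Capitals mark GATA, the ETS core GGAA, and the RUNX pattern TGTGGT or its variant TGCGGT. Each was searched on both strands, so capitals also mark the reverse complements, and neighbouring GGAA matches may adjoin.
Gp9 promoter, chr6:87777820-87778119, plus strand: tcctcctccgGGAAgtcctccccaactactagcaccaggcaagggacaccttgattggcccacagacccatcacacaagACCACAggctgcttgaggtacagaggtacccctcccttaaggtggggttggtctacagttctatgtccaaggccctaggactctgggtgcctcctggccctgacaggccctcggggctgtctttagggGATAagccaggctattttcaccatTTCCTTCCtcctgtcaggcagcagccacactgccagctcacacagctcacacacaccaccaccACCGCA
Fcer1g promoter, chr1:171234300-171234599, minus strand: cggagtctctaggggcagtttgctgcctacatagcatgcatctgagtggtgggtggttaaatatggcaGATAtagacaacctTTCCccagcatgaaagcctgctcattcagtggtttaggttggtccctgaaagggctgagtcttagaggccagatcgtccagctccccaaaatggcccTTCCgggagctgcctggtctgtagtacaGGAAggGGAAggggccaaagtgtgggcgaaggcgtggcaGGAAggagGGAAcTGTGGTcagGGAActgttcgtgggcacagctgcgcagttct
Gp6 promoter, chr7:4397695-4397994, minus strand: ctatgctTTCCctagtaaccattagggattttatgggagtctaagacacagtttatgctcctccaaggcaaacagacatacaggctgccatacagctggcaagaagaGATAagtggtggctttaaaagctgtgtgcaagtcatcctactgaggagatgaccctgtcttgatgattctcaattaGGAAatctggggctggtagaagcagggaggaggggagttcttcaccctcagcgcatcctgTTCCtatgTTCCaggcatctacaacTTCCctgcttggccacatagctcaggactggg
Clec1b promoter, chr6:129397047-129397346, plus strand: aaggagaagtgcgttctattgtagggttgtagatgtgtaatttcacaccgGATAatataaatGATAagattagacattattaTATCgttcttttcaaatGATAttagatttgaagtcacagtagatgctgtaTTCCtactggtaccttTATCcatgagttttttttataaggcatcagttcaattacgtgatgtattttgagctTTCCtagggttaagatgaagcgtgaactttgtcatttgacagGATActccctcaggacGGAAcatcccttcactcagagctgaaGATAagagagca

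Of the 9 members, 8 had a promoter in the RefSeq table, and Itgb3 had no entry there. RUNX letters stood in 2 of these 8, GATA in 7 and GGAA in 8. Among all 32851 promoters of the same length, 22.4% held a RUNX pattern, 57.9% GATA and 96% GGAA. The RUNX and GGAA shares of the members are near that background. Gp9 held the RUNX letters 171 bases before and 44 bases after the start, and Fcer1g 9 bases after it. Clec1b held 7 GATA, Gp1ba and Gp5 3 each, Gp1bb 2, Gp9, Gp6 and Fcer1g 1 each, and Itga2b none in this window. A match is a description of letters and not of a bound site.

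**Figure D1:**
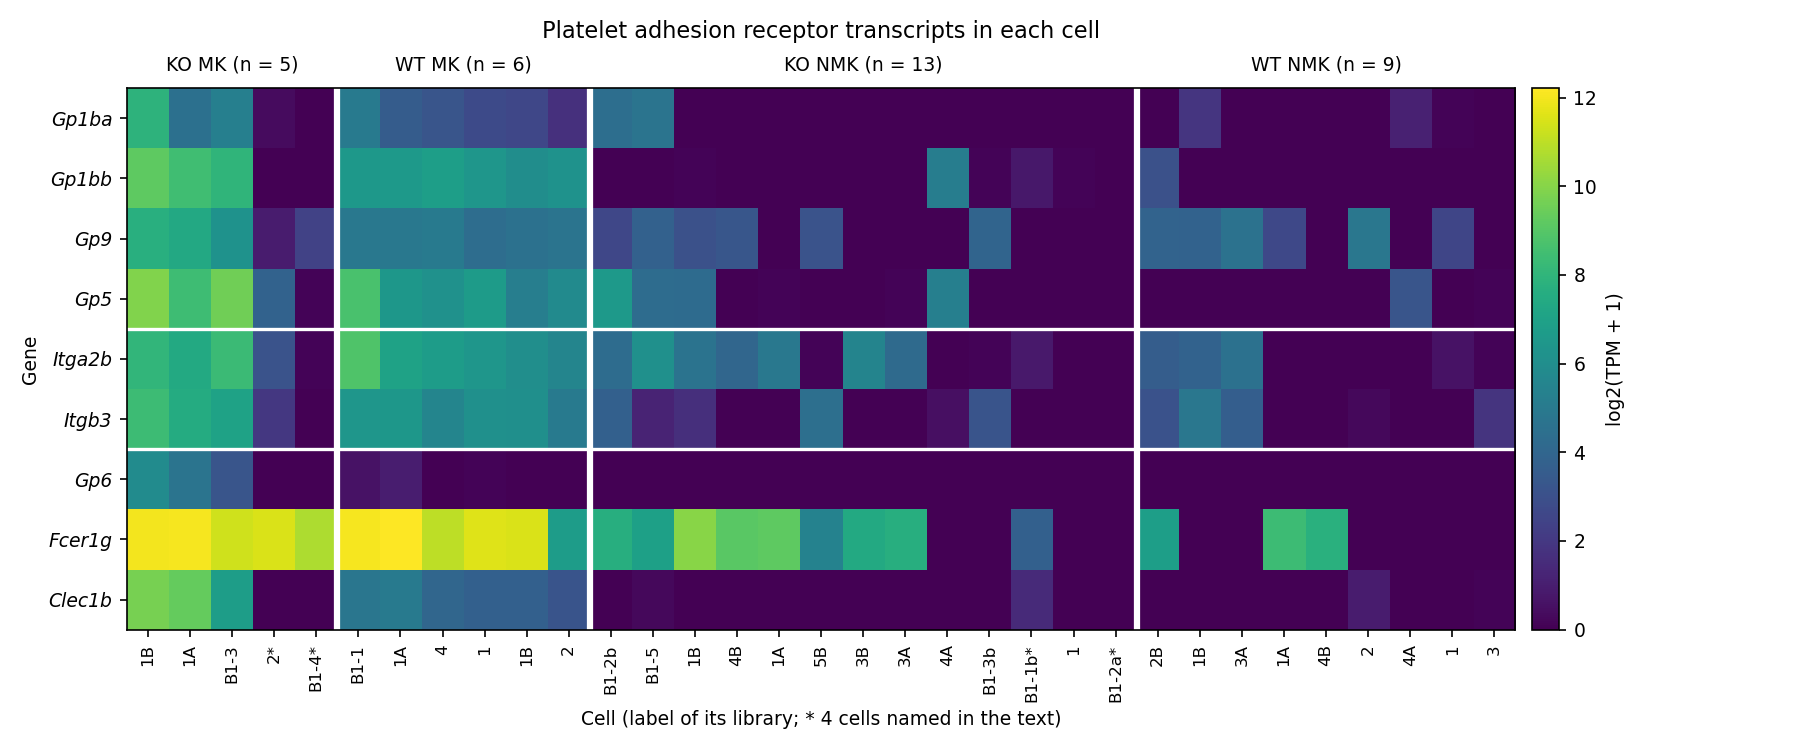
Levels of the 9 receptor genes (vertical) in each of the 33 cells (horizontal, by library label), as log2(TPM + 1), from 0 in dark blue to the highest values in yellow. Groups run from left to right as KO MK, WT MK, KO NMK and WT NMK, and cells within a group are sorted by the sum of the 9 levels for display. Receptor transcripts fill the WT MK cells and 3 of the 5 KO MK cells, thin out in KO MK 2 and B1-4, and are patchy in NMK cells, where Gp6 is listed at 0.

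GPIb-IX-V, the receptor for von Willebrand factor, was transcribed as a full set in every WT MK cell and in 3 of 5 KO MK cells, and those 3 held more Gp1bb and Gp9 than any WT MK cell. Values of KO MK cells are given below in the order 1A, 1B, 2, B1-3 and B1-4. Gp1ba (GPIbα, the chain that binds von Willebrand factor; GRCm38 chr11:70639122-70642036, plus strand) had 22.0, 233.3, 0.3, 37.2 and 0 TPM in KO MK cells, against a lowest value of 2.2, a median of 7.05 and a highest of 30.7 TPM in WT MK cells. Cells 1B and B1-3 lay above all WT MK cells, 1A within their range, and cells 2 and B1-4 below it. Gp1bb (GPIbβ, which links to GPIbα; chr16:18620317-18622403, minus strand) had 349.5, 574.4, 0, 253.4 and 0 TPM in KO MK cells, against 61.6, 86.5 and 112.7 TPM as lowest, median and highest in WT MK cells. No KO MK cell lay inside the WT MK range, with 3 above it and cells 2 and B1-4 listed at 0. Gp1bb overlaps Sept5 on the same strand, so its value is uncertain, although Sept5 was listed at no more than 0.0292 of the Gp1bb level in any MK cell where Gp1bb was detected.

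Gp9 (GPIX, needed for assembly of the complex; chr6:87778072-87779768, plus strand) had 164.5, 205.8, 0.9, 73.3 and 4.4 TPM in KO MK cells, against 19.9, 26.6 and 30.7 TPM as lowest, median and highest in WT MK cells. Again no KO MK cell lay within the WT MK range. Gp5 (GPV, a loosely attached subunit that thrombin cleaves; chr16:30307685-30310779, minus strand) had 339.8, 957.5, 13.1, 758.8 and 0.1 TPM in KO MK cells, against 36.9, 79.4 and 413.8 TPM in WT MK cells. Its groups overlapped through KO MK 1A, and the highest WT MK value belonged to B1-1, the only WT MK cell with a title prefix. Without B1-1 the highest WT MK value was 104.8 TPM for Gp5 and 10.9 TPM for Gp1ba, and KO MK 1A lay above it for both.

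Relative to Gp1bb in the same cell, Gp9 varied less than the other subunits. Gp9 stood at 0.289 to 0.471 of Gp1bb in the 3 KO MK cells with detected Gp1bb and at 0.237 to 0.362 of it in the 6 WT MK cells. Gp1ba ran at 0.0629 to 0.406 of Gp1bb in those KO MK cells and 0.0296 to 0.345 in WT MK cells, and Gp5 at 0.972 to 2.99 in KO MK and 0.599 to 4.65 in WT MK cells. Gp1ba was the lowest of the 4 subunits per length in these cells except KO MK 1B and WT MK B1-1, where Gp9 was lower.

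In NMK cells the complex was fragmentary. Gp9 was its most often detected subunit, at 1 TPM or more in 6 of 13 KO NMK and 6 of 9 WT NMK cells, with highest values of 14.3 TPM in KO NMK and 27.4 TPM in WT NMK. Gp5 was detected in 4 of 13 KO NMK cells, up to 96.2 TPM, and in 1 of 9 WT NMK cells, at 8.4 TPM. Gp1ba was detected in 2 KO NMK and 2 WT NMK cells, and Gp1bb in 1 of each.

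The integrin αIIbβ3, the fibrinogen receptor by which platelets aggregate, was present in MK cells of both genotypes. Itga2b (αIIb or CD41; chr11:102453297-102470122, minus strand) had 167.9, 263.4, 7.8, 317.9 and 0.1 TPM in KO MK cells, against 46.8, 95.4 and 454.7 TPM as lowest, median and highest in WT MK cells. The 3 KO MK cells with high levels all lay inside the WT MK range, and cells 2 and B1-4 below it. That range rests on WT MK B1-1, and without it the highest WT MK value was 129.7 TPM and the 3 KO MK cells all lay above it. Itgb3 (the β3 chain; chr11:104608000-104670476, plus strand) had 179.3, 331.4, 2.9, 131.2 and 0 TPM in KO MK cells, against 30.4, 67.4 and 86.5 TPM in WT MK cells. Here the 3 high KO MK cells all exceeded the highest WT MK cell. Itgb3 ran at 0.372 to 1.26 of Itga2b in the 4 KO MK cells with detected Itga2b and at 0.185 to 1.005 of it in WT MK cells.

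Itga2b was also detected in NMK cells, all of which came from a sort for its protein. It reached 1 TPM in 7 of 13 KO NMK cells, with a median of 15.6 and a highest value of 68.1 TPM, and in 3 of 9 WT NMK cells, with a median of 0.1 and a highest value of 22.3 TPM. Itgb3 was detected in 5 of 13 KO NMK cells, up to 21.0 TPM, and in 4 of 9 WT NMK cells, up to 27.6 TPM.

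Gp6 and Clec1b, receptors that signal through ITAMs, reached higher levels in 3 KO MK cells than in any WT MK cell. Gp6 (the collagen receptor; chr7:4363965-4397744, minus strand) had 25.2, 59.2, 0, 8.3 and 0 TPM in KO MK cells, against 0, 0.05 and 1.0 TPM as lowest, median and highest in WT MK cells. It was listed at 0 in 3 of the 6 WT MK cells, in all 13 KO NMK cells and in all 9 WT NMK cells. Clec1b (CLEC-2; chr6:129397297-129409335, plus strand) had 642.2, 848.7, 0, 110.7 and 0 TPM in KO MK cells, against 8.0, 13.9 and 30.7 TPM in WT MK cells. For both genes 3 KO MK cells lay above every WT MK cell, while cells 2 and B1-4 were listed at 0. Clec1b was detected in 1 of 13 KO NMK cells, at 1.7 TPM in the low-quality B1-1b, and in none of 9 WT NMK cells, whose highest value was 0.9 TPM. Clec1b overlaps Clec9a in the annotation, so reads could be split between them.

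Set against Itga2b in the same cell, Clec1b stood at 3.82, 3.22, 0 and 0.348 times its level in KO MK 1A, 1B, 2 and B1-3, against a lowest ratio of 0.0585, a median of 0.158 and a highest of 0.237 in WT MK cells. The ratio of Gp6 to Itga2b was 0.150, 0.225, 0 and 0.0261 in those KO MK cells and at most 0.00771 in WT MK cells. Within a cell these ratios do not depend on how the library was scaled. Both genes were thus higher relative to the integrin in 3 KO MK cells, and both were at 0 in KO MK 2, which held 7.8 TPM of Itga2b.

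Fcer1g (the γ chain; chr1:171229572-171234365, minus strand) followed another pattern. It had 4214.6, 4150.8, 2898.0, 2574.3 and 1692.3 TPM in KO MK cells, against 107.8, 3025 and 4745.7 TPM as lowest, median and highest in WT MK cells. It was high in all 5 KO MK cells, including 2 and B1-4, and the KO MK values lay inside the WT MK range. Fcer1g is shared with other receptors of myeloid cells and mast cells. KO MK 2 and B1-4 held 530.4 and 449.1 TPM of Tyrobp, another ITAM adaptor of myeloid cells, and 123.2 and 50.8 TPM of the Fc receptor gene Fcgr3. In the other MK cells of both genotypes the sum of the granulocyte and monocyte genes, these 2 included, was at most 13.8 TPM. Of 6 mast cell and basophil genes at most 1 was detected in any KO MK cell and at most 2 in any WT MK cell, with sums of at most 14.6 TPM in KO MK and 19.3 TPM in WT MK cells. Ms4a2, the β chain of the IgE receptor, was at most 0.7 TPM in KO MK and 2.3 TPM in WT MK cells. The part of these other cell types in the Fcer1g values was not tested.

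**Figure D2:**
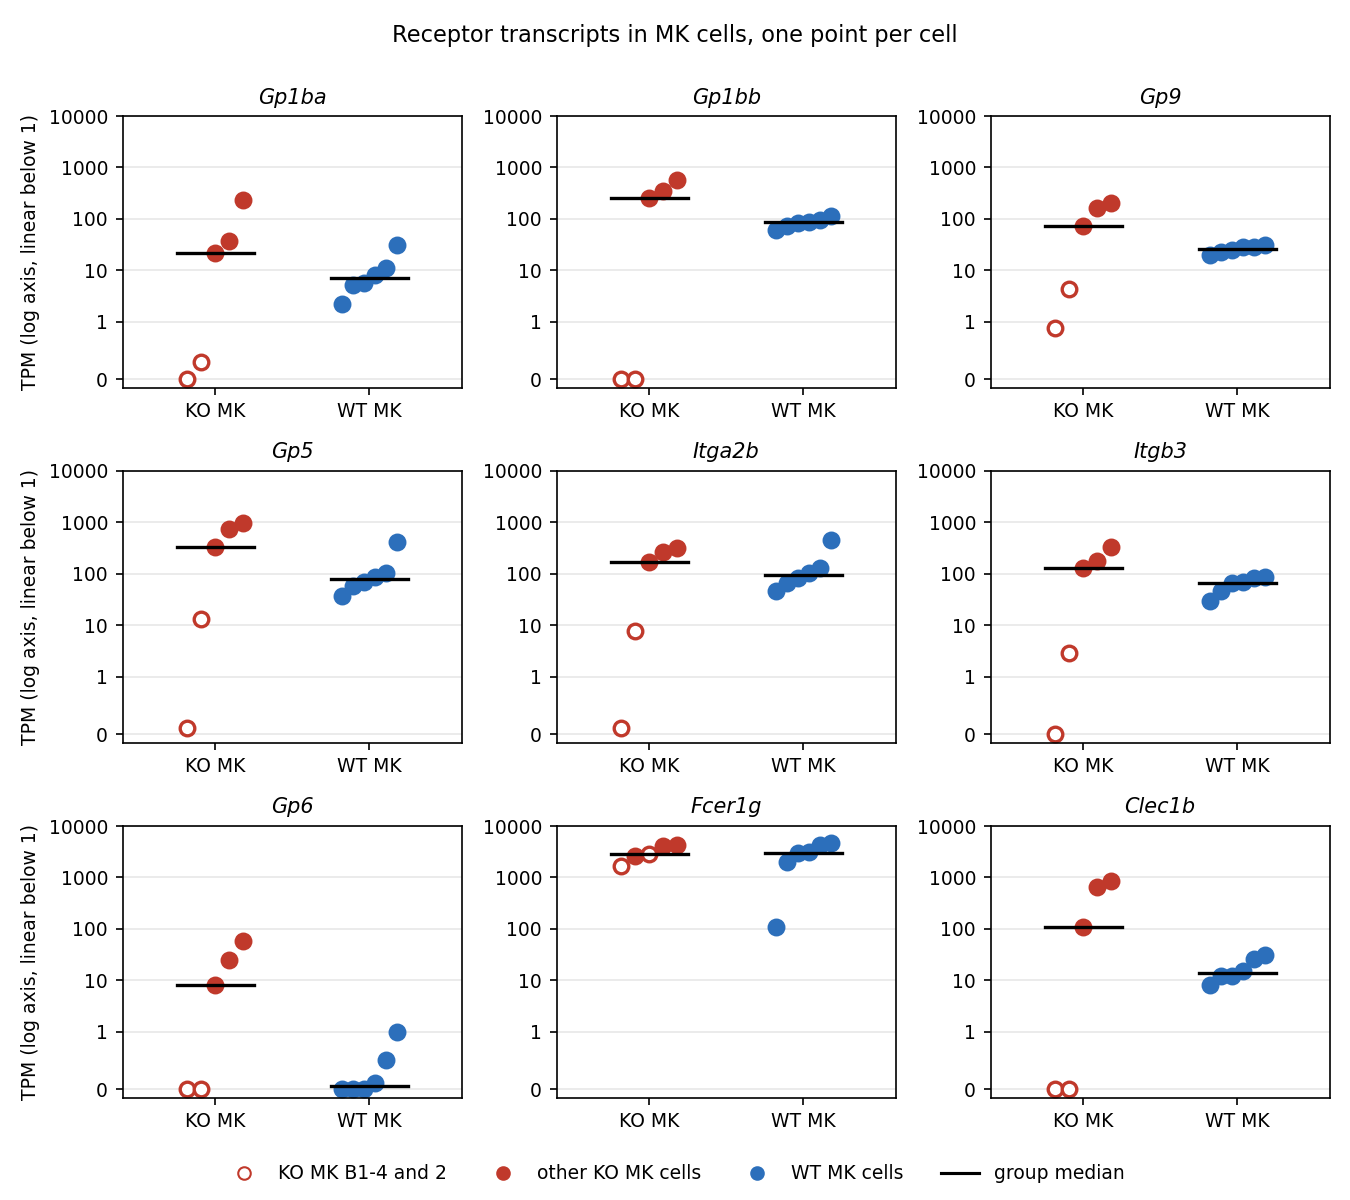
TPM of each receptor gene (vertical axis, logarithmic above 1 and linear below) in KO MK cells (left, red) and WT MK cells (right, blue), with 1 point per cell and a bar at the group median. Open circles are KO MK B1-4 and KO MK 2. The 3 filled KO MK points lie above all WT MK points for Gp1bb, Gp9, Itgb3, Gp6 and Clec1b, while for Fcer1g they lie inside the WT MK range, as they do for Itga2b through 1 WT MK cell, B1-1.

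By mean level per length, Fcer1g was the most abundant of the 9 transcripts in every group, at 3106 ± 1078 TPM in KO MK, 2861 ± 1665 in WT MK, 225.2 ± 318.2 in KO NMK and 72.7 ± 121.8 in WT NMK cells (SD, n = 5, 6, 13 and 9). In KO MK cells Gp5 (413.9 ± 433.5 TPM), Clec1b (320.3 ± 397.5), Gp1bb (235.5 ± 244.5), Itga2b (151.4 ± 145.0), Itgb3 (129.0 ± 137.9), Gp9 (89.8 ± 92.9) and Gp1ba (58.6 ± 98.9) followed, with no neighbours apart by more than their SD, and Gp6 was last at 18.5 ± 24.9 TPM. In WT MK cells the order was Itga2b (147.9 ± 153.1 TPM), Gp5 (128.6 ± 141.7), Gp1bb (86.4 ± 17.7), Itgb3 (63.6 ± 21.9), Gp9 (25.8 ± 4.17), Clec1b (17.5 ± 9.01), Gp1ba (10.5 ± 10.3) and Gp6 (0.267 ± 0.408). In that series the steps from Fcer1g to Itga2b, from Gp1bb to Itgb3 and from Itgb3 to Gp9 exceeded the larger SD of the neighbours, and the others did not. The mean of Clec1b in KO MK cells was carried by 1A and 1B, and its median there, 110.7 TPM, was below the 131.2 TPM of Itgb3. In KO NMK cells Itga2b (16.7 ± 20.9 TPM) and Gp5 (13.2 ± 27.6) came after Fcer1g, and in WT NMK cells Gp9 (9.77 ± 10.3) and Itgb3 (5.49 ± 9.27), with SDs above the means throughout.

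Complete GPIb-IX-V and GPVI sets were found in MK cells and in no NMK cell, and complete integrin pairs in both. A subunit counts as detected at 1 TPM or more, and intervals are exact Clopper-Pearson 95% intervals that cover counting error only. All 4 GPIb-IX-V subunits were detected in 3 of 5 KO MK cells (60%, 14.7 to 94.7%), 6 of 6 WT MK cells (100%, 54.1 to 100%), 0 of 13 KO NMK cells (upper bound 24.7%) and 0 of 9 WT NMK cells (upper bound 33.6%). Both integrin chains were detected in 4 of 5 KO MK, 6 of 6 WT MK, 3 of 13 KO NMK and 3 of 9 WT NMK cells. Gp6 and Fcer1g were detected together in 3 of 5 KO MK cells (14.7 to 94.7%), in only 1 of the 6 WT MK cells (interval 0.421 to 64.1%), and in no NMK cell. Those intervals overlap. In WT MK cells GPVI was incomplete for lack of Gp6, since Fcer1g was present in 6 of 6.

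Single cells show which subunits were missing. KO MK 1A, 1B and B1-3 held all 9 transcripts, KO MK 2 held Gp5, Itga2b, Itgb3 and Fcer1g, and KO MK B1-4 only Gp9 and Fcer1g. Of the WT MK cells 5 held every member but Gp6, and WT MK 1A held all 9, with Gp6 at 1.0 TPM. KO NMK B1-5 and KO NMK B1-2b each held 6 of the 9 transcripts, the most of any NMK cell, and both lacked Gp1bb, Gp6 and Clec1b. B1-5 had 24.7 TPM of Gp1ba, 12.7 of Gp9, 19.2 of Gp5, 68.1 of Itga2b, 1.3 of Itgb3 and 123.8 of Fcer1g, with Gp1bb listed at 0. WT NMK 2B held 5 (Gp1bb, Gp9, Itga2b, Itgb3 and Fcer1g), the most among WT NMK cells. KO NMK 1 and KO NMK B1-2a held none.

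**Figure D3:**
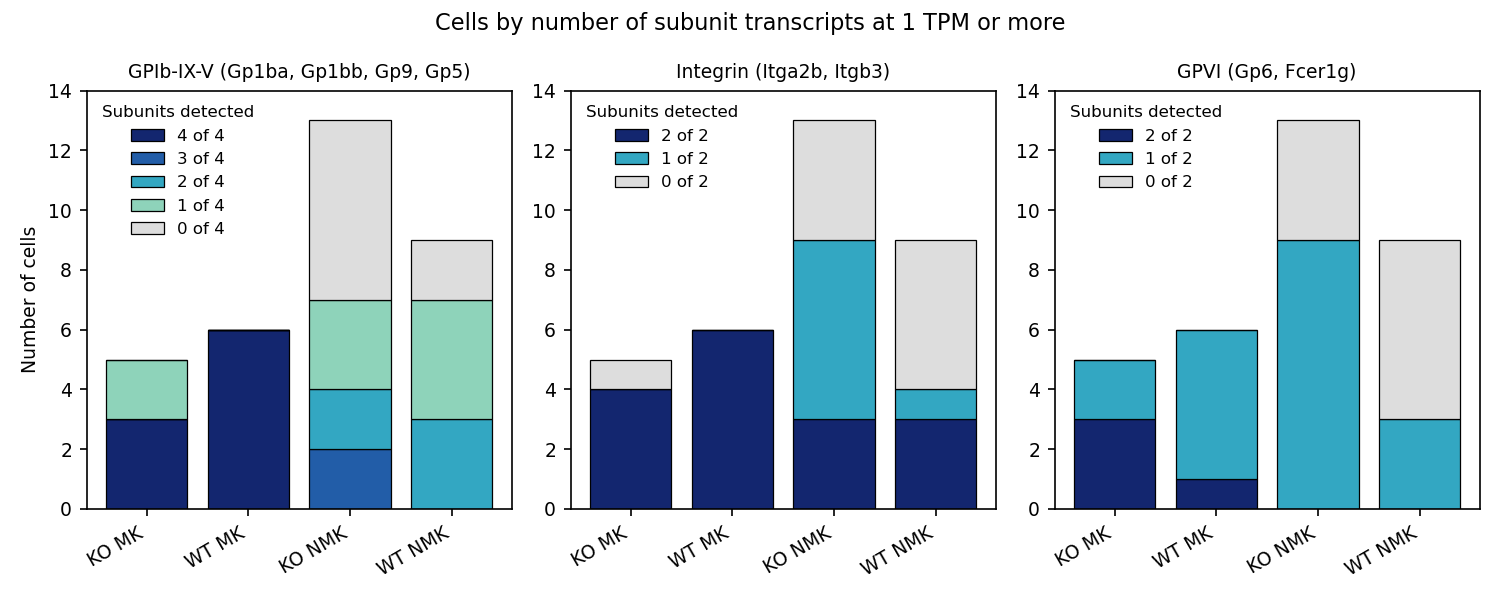
Number of cells (vertical axis) by how many subunit transcripts of a complex were at 1 TPM or more, in KO MK, WT MK, KO NMK and WT NMK cells from left to right, with 1 panel each for GPIb-IX-V, the integrin and GPVI. Darker parts mean more subunits and grey means none. Complete GPIb-IX-V sets occur in 3 KO MK and 6 WT MK cells and in no NMK cell, whereas 3 KO NMK and 3 WT NMK cells hold both integrin chains.

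Across all groups the comparisons below use the difference in mean log2(TPM + 1), with the pooled SD between cells, for genes that average at least 1 TPM in either group. A difference of 2 or more in size, a factor of 4 on the TPM + 1 scale, is called higher or lower. This scale understates the change of low genes. A gene that averages less than 1 TPM in 1 of the groups is compared only through the other, and could be called in 1 direction only. That limit holds for the gene lists as well as the members. The comparisons share groups with each other, so their values stand side by side and are not independent.

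Within the wild type, WT MK cells carried far more receptor transcripts than WT NMK cells. All 8 members that could be compared were higher by 2 or more, where 11.5% of all 11562 genes were, and none was lower, where 1.42% were. Their median difference was 4.89, against 0.70 over all genes. Gp1ba (0.444 TPM), Gp1bb (0.789), Gp5 (0.944) and Clec1b (0.111) averaged less than 1 TPM in WT NMK cells. They were thus compared only through their level in WT MK cells, and could not have been called lower. Gp5 differed by 6.15 (SD 1.12), Gp1bb by 6.09 (SD 0.81), Itga2b by 5.36 (SD 1.69), Itgb3 by 4.41 (SD 1.53) and Clec1b by 3.95 (SD 0.49). For these 5 genes every WT MK cell lay above every WT NMK cell, where 4.58% of all genes did so. Fcer1g had the largest difference at 8.31 (SD 3.27), and Gp1ba (2.79, SD 0.87) and Gp9 (2.25, SD 1.58) the smallest, each larger than the SD and with overlapping cells. Gp9 stood at 1.94, under the threshold, when WT NMK 3, 4A or 4B was left out. Gp6 averaged 0.267 TPM in WT MK cells and was listed at 0 in WT NMK cells.

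KO MK cells also exceeded KO NMK cells for all 9 members, where 10.5% of 13365 genes were higher by 2 or more and 0.509% lower. The median difference was 3.85, against 0.59 over all genes. Clec1b differed by 5.04 (SD 2.45), Gp5 by 4.77 (SD 3.04), Gp1bb by 4.63 (SD 2.65), Itgb3 by 3.85 (SD 2.34), Gp9 by 3.41 (SD 2.15) and Gp1ba by 2.91 (SD 2.24). Itga2b, at 2.73 (SD 2.80), differed by less than the spread between cells. Fcer1g, at 6.36 (SD 3.41), was the only member for which all KO MK cells exceeded all KO NMK cells, where 0.299% of all genes did so. Gp6 averaged 18.5 TPM in KO MK cells and was listed at 0 in KO NMK cells, where Clec1b averaged 0.146 TPM. Both were thus compared only through their level in KO MK cells, and could not have been called lower. Without KO MK 1B, 7 members were above the threshold, and Gp1ba stood at 1.84. The share of all genes was not computed without that cell. Leaving out KO MK 2 and B1-4 left 9 members higher, where 14.9% of genes were, with a median of 6.51, and 8 members without overlap, where 4.24% of genes were. Leaving out KO NMK B1-1b and B1-2a instead left 9 members higher, where 7.93% of genes were, with a median of 3.64.

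Between KO MK and WT MK cells, the difference was smaller than the spread between cells for 8 of 9 members. Gp6 was the 1 member called higher, by 2.48 (SD 1.83), where 2.14% of 11796 genes were higher by 2 or more and 1.51% lower. It averaged 0.267 TPM in WT MK cells, so it was compared only through its level in KO MK cells and could not have been called lower. The other differences were 1.10 for Clec1b (SD 3.28), 0.67 for Fcer1g (SD 1.57), 0.47 for Gp1ba (SD 2.39), 0.20 for Gp9 (SD 2.05), -0.16 for Gp5 (SD 2.97), -0.95 for Itgb3 (SD 2.53), -1.30 for Gp1bb (SD 3.14) and -1.37 for Itga2b (SD 2.55), each smaller than its SD. The sign of Gp5 turned after median-ratio rescaling, which moved the median of all genes to 0.24. Leaving out 1 cell turned the sign of 6 members. Without KO MK 1B, Clec1b stood at -0.040, Gp1ba at -0.60 and Gp9 at -0.49, without WT MK 2 Fcer1g at -0.15, and without KO MK B1-4 Itgb3 at 0.29 and Gp5 at 1.40. The median over the members was 0.20, against 0.09 over all genes. Gp6 itself stood at 1.70 without KO MK 1B, under the threshold, and was just short of it without 1A. Without KO MK B1-3 or 1B, 2 members were lower by 2 or more, and without 1A 1 was. The share of all genes was not computed with these single cells left out.

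Without KO MK 2 and B1-4 the same comparison read differently. Clec1b was then 4.55 higher in KO MK cells (SD 1.03), Gp6 4.33 (SD 0.80), Gp5 2.77 (SD 1.08), Gp1ba 2.75 (SD 1.33), Gp9 2.36 (SD 0.46) and Gp1bb 2.11 (SD 0.41). These 6 of 9 members passed the threshold, where 3.3% of 11345 genes did, and the median was 2.36, against 0.20 over all genes. Itgb3 (1.71, SD 0.60) and Itga2b (1.14, SD 0.99) were higher by more than the SD, and Fcer1g (0.94, SD 1.75) by less than it. Gp1bb, Gp9, Itgb3, Gp6 and Clec1b did not overlap between the 3 KO MK and 6 WT MK cells, where 12.6% of all genes were higher without overlap. The cells left out were those with the least megakaryocyte gene expression, and the WT MK cells were all kept, so this value compares a selected KO group with an unselected WT group. In it 4 of 8 megakaryocyte markers, the list by which the cells were left out, were also higher, with a median of 2.33, and so were all 3 erythroid markers that could be compared, with a median of 2.69. Of the 6 erythroid markers Klf1, Car1 and Hba-a1 were listed at 0 in all KO MK cells, and the sum was 57.4 to 1374.9 TPM in the 3 KO MK cells, mostly the globin gene Hbb-bt, against 14.2 to 128.2 TPM in WT MK cells. The part of erythroid transcripts in the receptor values was not tested. Among the cells without a title prefix, 3 KO MK and 5 WT MK, 2 members were higher, where 299 of 11225 genes were. The median over the members was 1.24. With the prefix B1, 2 KO MK cells and 1 WT MK cell, 5 members were lower, where 873 of 12369 genes were. The median over the members was -2.36. One of these KO MK cells is B1-4, and the other, B1-3, was above WT MK B1-1 for 7 of 9 members, so the lower calls rest on B1-4. The labels do not say what the prefix marks.

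In NMK cells no member differed between genotypes by more than the spread between cells. Fcer1g was the 1 of 7 compared members called higher in KO NMK cells, by 2.62 (SD 3.89), where 1.76% of 12835 genes were higher by 2 or more and 2.86% lower. Its median was 123.8 TPM in KO NMK and 0 TPM in WT NMK cells, with highest values of 1054.3 and 329.2 TPM, and it was detected in 9 of 13 KO NMK cells (38.6 to 90.9%) and 3 of 9 WT NMK cells (7.49 to 70.1%). The difference is smaller than the spread between cells, and the intervals overlap. Itga2b differed by 1.27, Gp5 by 1.22, Gp1ba by 0.35, Gp1bb by 0.15, Itgb3 by -0.39 and Gp9 by -0.97, with a median over the members of 0.35, against 0.20 over all genes. Gp1ba (0.444 TPM), Gp1bb (0.789) and Gp5 (0.944) averaged less than 1 TPM in WT NMK cells. They were thus compared only through their level in KO NMK cells, and could not have been called lower. Without KO NMK B1-1b and B1-2a, Fcer1g differed by 3.21 and was again the 1 member called, where 5.57% of genes were higher, and the median was 0.48.

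**Figure D4:**
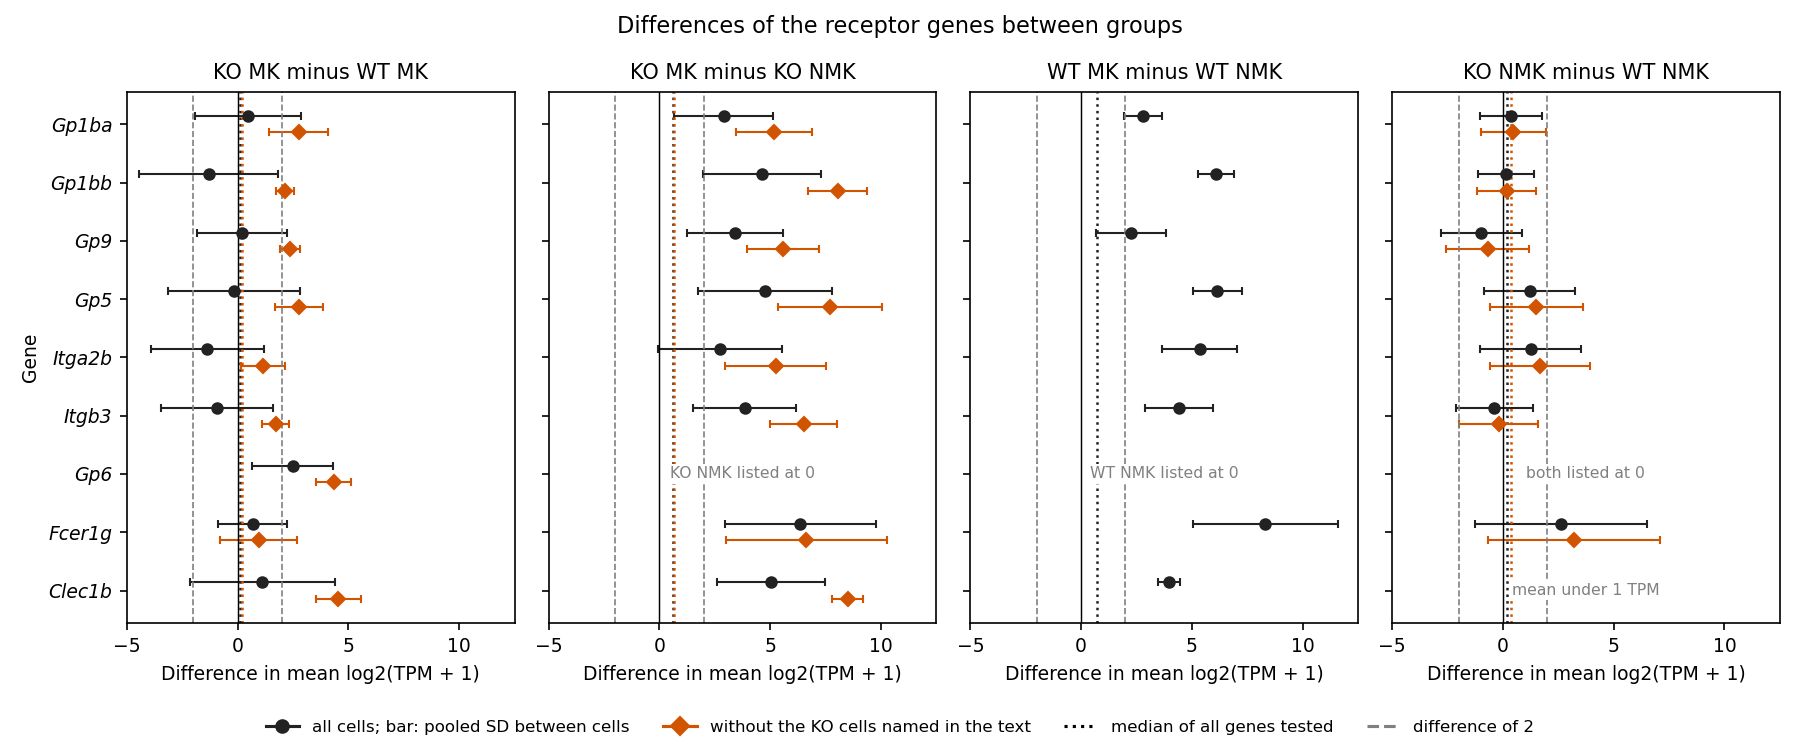
Difference in mean log2(TPM + 1) of each receptor gene (horizontal axis) for 4 comparisons, from left to right KO MK minus WT MK, KO MK minus KO NMK, WT MK minus WT NMK and KO NMK minus WT NMK. Black circles use all cells and orange diamonds leave out KO MK 2 and B1-4 (panels with KO MK) or KO NMK B1-1b and B1-2a (last panel); bars are pooled SDs between cells, dotted lines the medians of all genes and dashed lines differences of 2. In the first panel 6 orange points lie beyond 2, against 1 black point.

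Levels of the members varied together across MK cells. Over the 11 MK cells, the pairs among the 8 members other than Fcer1g had Spearman rho of 0.78 to 0.97, and pairs with Fcer1g 0.35 to 0.68. These are descriptions over cells that share libraries and groups, and KO MK 2 and B1-4 lie at the low end for all members but Fcer1g. Over all 33 cells the genes whose levels were most like the mean of the 9 members were Tuba8 (rho 0.84), Unc119 (0.83), Gata1 (0.82), Ckap2l (0.81), Sord, Ldha, Prkar2b and Ap2s1 (0.80 each), of 4956 candidates. Gata1, the megakaryocyte and erythroid transcription factor, averaged 149.0 TPM in KO MK, 29.3 in WT MK, 0.00769 in KO NMK and 0.0556 in WT NMK cells.

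Ligands and other adhesion receptors of platelets, 21 measured genes, were described next to the members. Treml1 (a receptor of platelet granule membranes) was higher by 4.91 in WT MK over WT NMK and by 5.19 in KO MK over KO NMK cells. Selp (P-selectin) was higher by 3.15 and 4.50 in the same comparisons. Vwf (von Willebrand factor, the ligand of GPIbα) averaged 13.7 TPM in KO MK, 5.25 in WT MK, 0.0846 in KO NMK and 0.556 in WT NMK cells, and was called higher in both comparisons of MK with NMK cells. Both NMK means are below 1 TPM, so Vwf was compared only through MK cells and could not have been called lower. In all, 3 of 14 compared genes were higher in WT MK over WT NMK and 7 of 17 in KO MK over KO NMK cells, the others being Cd9, F11r, Esam and Itga6, with list medians of 1.15 and 1.51, against 11.5% and 10.5% of all genes and medians of 0.70 and 0.59. The count in KO MK over KO NMK cells was 9 of 17 without KO MK 2 and B1-4, where 14.9% of genes were higher, and 7 of 16 without KO NMK B1-1b and B1-2a, where 7.93% were. Between genotypes F11r (junctional adhesion molecule A) was higher in KO MK over WT MK cells, by 2.16, as 1 of 15, where 2.14% of all genes were. Without KO MK 2 and B1-4, 5 of 15 were, where 3.3% of genes were, led by Treml1 at 3.85 and F11r at 2.77, with Itga2, the collagen-binding α2 integrin chain, at 2.52. Treml1 and Vwf are among the megakaryocyte genes by which KO MK 2 and B1-4 were left out. The counts without those cells are therefore not independent of that choice. Cd9, a tetraspanin of platelets, was lower by 2.51 in KO NMK over WT NMK cells, with means of 745.1 TPM in KO NMK and 2076 TPM in WT NMK cells.

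The machinery that switches the integrin on comprised 16 genes. Vcl (vinculin), Rap1b (the small GTPase that activates the integrin) and Parvb were higher in WT MK over WT NMK cells, by 3.52, 3.17 and 2.62, as 3 of 16 where 11.5% of all genes were. In KO MK over KO NMK cells 8 of 16 were higher, led by Vcl at 3.75 and Rap1b at 3.57, and including Fermt3, which encodes the integrin activator kindlin-3, at 2.33, where 10.5% of all genes were. That count was 11 of 16 without KO MK 2 and B1-4, where 14.9% of genes were higher, and 3 of 16 (Vcl, Rap1b and Parvb) without KO NMK B1-1b and B1-2a, where 7.93% were. None of 16 passed the threshold between KO MK and WT MK cells, and their median difference was 0.35, against 0.09 over all genes. Without KO MK 2 and B1-4, 5 did, where 3.3% of genes did, among them Zyx at 2.62 and Rasgrp2, the activator of Rap1, at 2.49.

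Signalling genes behind GPVI and CLEC-2, 20 measured, included Lat, the scaffold of the pathway. Lat was higher by 3.44 in WT MK over WT NMK and by 4.92 in KO MK over KO NMK cells. In those comparisons 3 of 17 genes were higher, with a list median of 1.51, and 5 of 18, with a list median of 1.32, where 11.5% and 10.5% of all genes were higher and the medians were 0.70 and 0.59. The second count was 7 of 18 without KO MK 2 and B1-4, where 14.9% were, and 4 of 17 without KO NMK B1-1b and B1-2a, where 7.93% were. Prkcq (protein kinase C theta) and Lcp2 (the adaptor SLP-76) were higher in KO MK over WT MK cells, by 2.11 (SD 1.33) and 2.02 (SD 0.55), as 2 of 16 genes, where 2.14% of all genes were. Prkcq averaged 60.4 TPM in KO MK and 7.27 TPM in WT MK cells, and Lcp2 301.2 and 68.7 TPM. Without KO MK 2 and B1-4 they stood at 3.55 and 2.35, with Lat at 2.05.

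Genes that bind, fold or cleave GPIb-IX-V, 13 measured, had 2 calls at most in any of these comparisons with all cells. In KO MK over KO NMK cells without KO MK 2 and B1-4, 4 of 13 were higher, where 14.9% of all genes were. Hspa5 (an endoplasmic reticulum chaperone) and Adam10 (a protease that sheds platelet receptors) were higher in WT MK over WT NMK cells, by 2.56 and 2.34, as 2 of 13, near the 11.5% of all genes, and none of 13 passed in KO MK over KO NMK or KO MK over WT MK cells. Of 15 transcription factors of megakaryocytes, Gata1 (4.75), Zfpm1 (2.67, the GATA1 cofactor FOG1), Runx3 (2.34) and Gfi1b (2.27) were higher in WT MK over WT NMK cells, and Gata1 (5.27) and Gfi1b (2.39) in KO MK over KO NMK cells, where 11.5% and 10.5% of all genes were. Gata1 averaged 0.0556 TPM in WT NMK and 0.00769 TPM in KO NMK cells. It was thus compared only through MK cells, and could not have been called lower. The count in KO MK over KO NMK cells was 5 of 15 without KO MK 2 and B1-4, where 14.9% were, and 1 of 15, Gata1, without KO NMK B1-1b and B1-2a, where 7.93% were. None passed between KO MK and WT MK cells. Without KO MK 2 and B1-4, Gata1 was 3.08 higher and Runx3 differed by -2.16 in KO MK over WT MK cells. Gata1 is 1 of the 8 megakaryocyte genes by which those cells were left out. Its values without them therefore follow in part from that choice. Of 11 genes listed with Fcer1g, not all of them its partners, 5 could be compared. Tyrobp (3.36), Clec4e (3.01) and Fcgr3 (2.88) were higher in KO MK over WT MK cells, where 2.14% of all genes were. Tyrobp is another adaptor and no partner of the γ chain. In WT MK cells Tyrobp was at most 1.7 TPM and Fcgr3 at most 0.8 TPM. Both were thus compared only through KO MK cells, and could not have been called lower. The Tyrobp and Fcgr3 levels came from KO MK 2 and B1-4. In the other KO MK cells Tyrobp was at most 0.1 TPM and Fcgr3 at most 1.7 TPM. Without KO MK 2 and B1-4, 2 of 4 compared genes were higher, where 3.3% of all genes were. They were Clec4d, a C-type lectin that signals through the γ chain, at 2.56 and the cytokine gene Osm, no partner of that chain, at 2.14.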

How the data were processed

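Single-cell RNA libraries were prepared with SMART-Seq kits, per the labels' protocols. The authors deposited gene-level TPM, with at most 1 decimal, in a table of 46 libraries and in a table of 33 without outliers. Both hold identical values for shared libraries. The submitters' processing notes name featureCounts 1.6.2, STAR 2.6.1e, cutadapt 1.9.1 and FastQC 0.11.7, and the build mm10 (GRCm38). Not given in the sources used here are the annotation, the strand use, how counts became TPM and how outliers were chosen. The labels list 90 samples, 44 of them not analysed here. The fuller table has 1 column that matched no sample and was not used.

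Columns were matched to samples by title and grouped by genotype and picked cell type. The 9 members, the gene lists and the alternatives were chosen with earlier results of these data known. From the TPM, log2(TPM + 1), group means, pooled SDs between cells, detection at 1 TPM or more and exact Clopper-Pearson intervals were computed with Python 3.11.15, pandas 2.3.3, numpy 2.4.6 and scipy 1.17.1, and figures with matplotlib 3.10.9. Genes that average at least 1 TPM in either group were compared, and a difference of 2 in size was called. With 1 sample per group no p-value is given. Pathway genes are named where they passed that difference, at most 8 per list and comparison. Genes most like the members are the 8 with the highest Spearman rho among those that average at least 10 TPM over 33 cells. Alternatives varied the table, pseudocount, average, scaling, filter, threshold, title prefix and single cells.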

Additional observations from a re-analysis of the deposited data

Results flagged for a closer look

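Within groups, 4 of 26 tested combinations of a gene and a group had 1 cell far from the rest on the log2(TPM + 1) scale. For continuous values chance gives about 1 in 20, a rate that does not apply to the 3 WT NMK cases below, where nearly all other cells were listed at 0. Fcer1g stood at 107.8 TPM in WT MK 2, the lowest of 6 cells, with the next at 2011.6 TPM. Gp1bb stood at 7.1 TPM in WT NMK 2B, with the other 8 cells listed at 0. Gp5 stood at 8.4 TPM in WT NMK 4A and Clec1b at 0.9 TPM in WT NMK 2, with the next cell at 0.1 TPM in both cases.

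Libraries that the authors left out of the smaller table also carried receptor transcripts above every WT cell of the same kind. KO MK 1 did so for all 9 members, with 115.4 TPM of Gp1ba, 227.1 of Gp1bb, 274.9 of Gp9, 717.7 of Gp5, 557.6 of Itga2b, 320.9 of Itgb3, 46.7 of Gp6, 12949.5 of Fcer1g and 3943.2 of Clec1b. Its housekeeping score was 9.33, with 5365 genes at 1 TPM or more, against 9022 or more in WT MK cells. Its 6 erythroid markers summed to 26398.8 TPM, where the MK cells of the smaller table had at most 1374.9 TPM. KO MK B1-1 had 110.6 TPM of Gp9, 482.4 of Gp5 and 144.4 of Itgb3, with a housekeeping score of 6.98 and 71.5% mitochondrial transcripts. KO MK B1-1a had 225.4 TPM of Gp1bb and 161.1 of Gp9, with a score of 5.62 and 74.8% mitochondrial transcripts. KO NMK 5A had 95.8 TPM of Gp1bb and 54.8 of Itga2b, with a score of 1.24, 12 of 14 housekeeping genes listed at 0 and 36567.9 TPM of erythroid markers. KO NMK B1-1a had 28.6 TPM of Gp5 and 43.5 of Itga2b, with a score of 10.3. For these libraries the share of all genes above every WT cell was not computed, so the receptor values have no background. The part of erythroid transcripts and library quality in these values was not tested.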

How the results depend on the processing

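No paired analysis was possible because no comparison rests on a test, and the numbers in the titles name cells and no mouse or culture. No result changed sign among called values, and of 977 alternatives for 33 differences of single members, 933 moved by less than the spread between cells and 44 by more. Causes were not tested.

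In WT MK over WT NMK, the median of 4.89 became 3.02 with the full table and 6.08 with medians over cells. With pseudocounts of 0.1 and 10 the median was 7.05 and 2.74. The count of 8 higher members became 5 with a pseudocount of 10, where 105 of 11562 genes were called higher. In KO MK over KO NMK, the median of 3.85 became 6.22 with medians over cells and 6.51 without KO MK 2 and B1-4. The count of 9 higher members became 5 among cells with the prefix B1, where 3956 of 13236 genes were called higher. With that prefix 1 of 2 KO MK cells is B1-4. In KO MK over WT MK, the count of 1 higher member became 4 with the full table, where 332 of 13371 genes were called higher. It became 0 with a pseudocount of 10, 3 with a ratio of mean TPM and 3 with medians over cells. Of 11796 genes, 38, 763 and 318 were called higher in that order, against 252 in the main comparison. A threshold of 1 gave 2 members and 1464 of 11796 genes. The count was 2 without prefix, 0 with the prefix B1 and 6 without KO MK 2 and B1-4. In that order 299 of 11225, 717 of 12369 and 374 of 11345 genes were called higher. The count of 0 lower members became 1 with a pseudocount of 0.1 and 2 with a threshold of 1. With the prefix B1 it was 5, and the median was -2.36. In that order 956 of 11796, 1094 of 11796 and 873 of 12369 genes were called lower, against 178 of 11796 in the main comparison. In KO NMK over WT NMK, the higher count of 1 became 0 with a pseudocount of 10. It became 2 with medians over cells and 3 with a threshold of 1. Of 12835 genes, 14, 881 and 1638 were called higher in that order, against 226 in the main comparison. The lower count became 1 with medians over cells, where 663 of 12835 genes were called lower, against 367. The median of 0.35 became 1.497 with a ratio of mean TPM and 1.27 with a minimum of 10 TPM.

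Leaving out 1 cell at a time gave medians of 4.63 to 5.25 in WT MK over WT NMK, 2.995 to 5.09 in KO MK over KO NMK, -0.60 to 0.87 in KO MK over WT MK and 0.19 to 0.66 in KO NMK over WT NMK. Higher members numbered 7 to 8, 7 to 9, 0 to 2 and 1 to 1 in that order, and lower members 0 to 2 in KO MK over WT MK and 0 elsewhere. The share of all genes called was not computed with 1 cell left out, so these counts have no background. Cells with complete GPIb-IX-V numbered 2 to 3 in KO MK and 5 in WT MK, with a complete integrin 3 to 4 in KO MK, 5 in WT MK and 2 to 3 in either NMK group, and with complete GPVI 2 to 3 in KO MK and 0 to 1 in WT MK.

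Complete complexes depended on the detection limit. Above 0 TPM, 5 KO NMK cells had both integrin chains and 3 WT MK cells GPVI. At 10 TPM these were 1 and 0, and 2 WT MK cells had GPIb-IX-V. The full table gave 6 KO MK cells with GPIb-IX-V and 8 with the integrin. Without prefix 1 KO NMK cell had the integrin. With the prefix B1, 1 KO MK and 1 WT MK cell had GPIb-IX-V, 1 and 1 the integrin, and 1 and 0 GPVI. That prefix has no WT NMK cell, so its comparisons with WT NMK gave no value.

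Depth is unknown in TPM, so a listing at 0 does not show absence. With the full table the median of all genes in WT MK over WT NMK moved to 0.01, against 0.70, and with a pseudocount of 0.1 to 1.58.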

Other observations

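Libraries left out by the authors differed from one another in the balance of receptors. The ratio of Clec1b to Itga2b was 7.07 in KO MK 1, above the 3.82 of the highest KO MK cell in the smaller table, and 0.152 in KO MK B1-1, inside the range of 0.0585 to 0.237 of WT MK cells. Gp6 stood at 46.7 TPM in KO MK 1 and 0.5 TPM in KO MK B1-1. Adding the left-out libraries with housekeeping scores of 6 or more gave differences of 2.57 for Gp6 and 2.00 for Clec1b in KO MK over WT MK cells.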
